A study of Mus musculus with 6 samples.

Results

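The 9 genes described here encode the core of mouse interferon signalling: the receptor chains Ifnar1, Ifnar2, Ifngr1 and Ifngr2, the Janus kinases Jak1 and Tyk2, the transcription factor subunits Stat2 and Irf9, and the inhibitor Usp18. They are 9 of the 25006 genes counted, all 9 were found by symbol, and all 9 passed the filter on low counts. They were selected on results of the same null against control comparison that is described below, in which the level of Usp18 was already known. That comparison is therefore given for the 9 genes as a description, with intervals and without printed p-values. Calls at an adjusted p under 0.05 place these genes among all tested genes and are not tests of them. Whether such a call was kept or lost under an alternative is likewise a description.

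RNA was sequenced from heart ventricles of NMRI mouse embryos at embryonic day 17.5, in 3 libraries labelled null and 3 labelled control. The null label carries the genotype VecadcreERT2; Prox1f/f: floxed Prox1 alleles with a tamoxifen-inducible Cre driven by the VE-cadherin promoter, which is active in endothelial cells. The control label gives the genotype as WT. Both groups came under one protocol, in which Prox1 f/f females were mated with VecadCreERT2;Prox1 f/f males and the dams received 5 mg tamoxifen per 40 g body weight at E13.5 and E14.5 (days of gestation). As written, that cross gives Prox1 f/f embryos only, so the WT label of the controls conflicts with the protocol. Since the control label names no Cre, the presence of Cre and the loss of Prox1 cannot be told apart in this design. If the WT label holds, the floxed alleles and the parentage differ between the groups as well and cannot be told apart from these. The labels do not say whether the replicates of a group came from separate embryos or litters, so p-values measure the spread between these libraries, which may be technical in part. Sex-linked transcripts, given below, differed within each group, so the 3 libraries of a group did not all come from the same embryo.

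Library totals ranged from 35195544 to 44330594 counts, a depth at which 3 counts equal 0.0677 to 0.0852 CPM (counts scaled to a common library size). Prox1 had 164, 160 and 168 CPM in the null-labelled libraries, against 149, 143 and 149 CPM in control libraries, a log2 fold change of 0.15 ± 0.03 (adjusted p = 0.0331). The gene-level count was thus not lower under the null label, and it does not show the floxed part alone. It is also taken over all cells of the ventricle, while the Cre promoter is active in endothelial cells. The count therefore cannot show whether Prox1 was lost in those cells. Esr1, the gene whose product contributes the hormone-binding part of CreERT2 fusions, had 298, 244 and 290 counts in the null-labelled libraries, against 14, 9 and 19 in control libraries. Null 1 and null 3 carried transcripts of Y-linked genes together with Xist at 44.6 and 138.6 CPM, a level between those of the male control libraries (0.63 and 0.81 CPM) and the female libraries null 2 and control 3 (1397 and 1406 CPM). Results are given below with and without null 1 and null 3 together where this changed a call. The male libraries named below are null 1, null 3, control 1 and control 2, assigned by Y-linked transcripts. Results from male libraries and with a sex term thus count null 1 and null 3 as male despite their Xist.

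Type I interferons bind a receptor made of IFNAR1 and IFNAR2. The receptor chains carry the kinases TYK2 and JAK1, which phosphorylate STAT proteins, STAT2 among them. STAT2 joins IRF9 in the factor ISGF3, which binds the interferon-stimulated response element of target promoters. Type II interferon binds a receptor of IFNGR1 and IFNGR2 that works through JAK1 and JAK2, and its response runs through the gamma-activated site. USP18 is both the main protease that removes the ubiquitin-like modifier ISG15 from proteins and an inhibitor that binds IFNAR2 and displaces JAK1; Stat2, Irf9 and Usp18 are known targets of interferon, so the pathway feeds back on its own parts. Ventricle tissue contains many cell types, and in such bulk RNA a change in the number of cells of a type and a change in RNA per cell cannot be told apart.

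Promoter windows are shown because they hold the letters to which these factors bind. The windows of the 3 genes with a match are printed. RefSeq windows of 300 bases (GRCm38.p6, 250 bases before to 50 bases after the start) were matched for 8 of the 9 genes, with 2 windows for Irf9 and none for Usp18. Each was searched on both strands for a pair of GAAA half-sites in the same direction and 2 bases apart, the core of the interferon-stimulated response element, and for TTCNNNGAA, the gamma-activated site. The Stat2 window lies at chr10:128270248-128270547 on the plus strand, and its capitals mark the half-site pair, read on the opposite strand and beginning 222 bases before the start. The Ifnar1 window lies at chr16:91484965-91485264 and the Ifnar2 window at chr16:91372533-91372832, both on the plus strand, and their capitals mark a gamma-activated site 5 and 214 bases before the start.
Stat2: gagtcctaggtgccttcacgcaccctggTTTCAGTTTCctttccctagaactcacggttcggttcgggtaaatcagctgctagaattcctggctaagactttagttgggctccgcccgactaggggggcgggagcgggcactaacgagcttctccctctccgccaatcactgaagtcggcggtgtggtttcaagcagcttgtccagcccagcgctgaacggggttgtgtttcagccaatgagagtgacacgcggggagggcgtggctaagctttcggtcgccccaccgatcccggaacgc
Ifnar1: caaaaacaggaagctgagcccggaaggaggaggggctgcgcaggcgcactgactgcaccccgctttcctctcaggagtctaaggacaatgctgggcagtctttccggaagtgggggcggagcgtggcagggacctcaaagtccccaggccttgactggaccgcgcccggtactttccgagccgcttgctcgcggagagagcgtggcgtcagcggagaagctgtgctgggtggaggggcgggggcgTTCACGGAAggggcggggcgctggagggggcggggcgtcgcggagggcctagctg
Ifnar2: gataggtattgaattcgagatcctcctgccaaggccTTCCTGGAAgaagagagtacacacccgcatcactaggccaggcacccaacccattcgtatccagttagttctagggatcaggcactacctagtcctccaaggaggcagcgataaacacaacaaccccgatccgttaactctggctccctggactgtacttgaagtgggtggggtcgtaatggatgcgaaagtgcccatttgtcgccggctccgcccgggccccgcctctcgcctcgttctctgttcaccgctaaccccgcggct

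Neither motif was found in the windows of Ifngr1, Ifngr2, Jak1, Tyk2 or Irf9. Of 27025 genes with a window, 3.99% held the half-site pair and 9.55% the gamma-activated site. Of the 8 genes described here that have a window, 1 held the half-site pair and 2 the gamma-activated site. Among the listed type I interferon targets the half-site pair stood in 9 of 17 windows (52.9%), and among the type II targets in 6 of 13 (46.2%). The gamma-activated site stood in 5 of the 17 type I windows (29.4%) and in 4 of the 13 type II windows (30.8%), so its share was similar in both lists. A match is a description of the letters and does not show that a factor binds there.

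Of the 9 genes, 3 receptor genes lie together and the others apart. On the plus strand of chromosome 16 (GRCm38), Ifnar2 spans 91372783 to 91405589, Ifnar1 spans 91485238 to 91507441 and Ifngr2 spans 91547072 to 91565623. Ifngr1 lies at 19591949 to 19610229 and Stat2 at 128270559 to 128292849 on chromosome 10, Jak1 at 101152367 to 101265282 on chromosome 4 and Tyk2 at 21104068 to 21131243 on chromosome 9. Irf9 lies at 55603571 to 55610030 on chromosome 14 and Usp18 at 121245906 to 121270917 on chromosome 6. The strand setting of the authors' counting is not given in the sources used here, and some exons overlap those of another gene: 9.46% of the exon bases of Ifnar2, 8.07% of Tyk2, 4.44% of Usp18 (a non-coding RNA on the opposite strand) and 2.28% of Irf9 (Rnf31, on the same strand). Reads in those bases cannot be assigned to one gene with certainty.

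The 4 receptor chains and 2 kinases had nearly the same level in both groups, while Usp18 was 8.96-fold higher and Irf9 1.57-fold higher in the null-labelled ventricles. Stat2 lay between, with overlapping groups. By edgeR's quasi-likelihood test with Benjamini-Hochberg adjustment over 14815 tested genes, at an adjusted p under 0.05, 2 of the 9 genes were called higher (Usp18 and Irf9), none was called lower and 7 were not called. Of all tested genes 5.41% were called, 2.43% higher and 2.98% lower, and since these genes were chosen with the comparison in view nothing is read from their share. The groups did not overlap in 2 of the 9 genes, against 26.6% of all tested genes. The median log2 fold change was 0.06 over the 9 genes and −0.0040 over all tested genes.

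**Figure D1:**
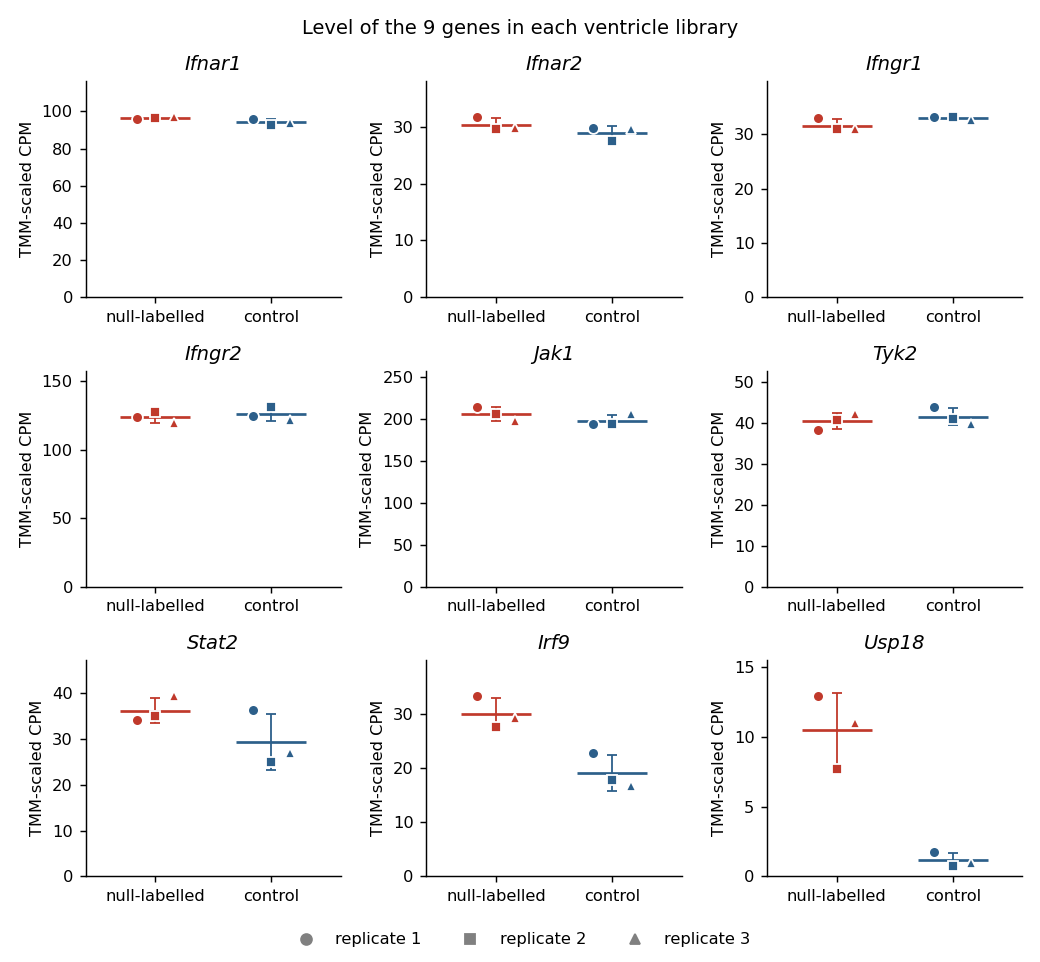
Level in CPM of each of the 9 genes in each library (points), with null-labelled libraries left of control libraries with group means as lines and bars of ± SD; each panel has its own axis. The groups are separate for Usp18 (7.68 CPM or more in null-labelled libraries, 1.73 CPM or less in controls) and Irf9, and they overlap in the other 7 genes.

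Among the receptor chains, Ifnar1, the chain that carries TYK2, had 95.7, 96.6 and 97.0 CPM in the null-labelled libraries, against 96.1, 92.5 and 93.7 CPM in control libraries. The log2 fold change was 0.03 ± 0.03 (SE), with a 95% interval of −0.04 to 0.11. The 6 libraries lay within a few CPM of each other, and control 1 was as high as the null-labelled libraries. Ifnar2, the chain that carries JAK1 and to which USP18 binds, had 31.7, 29.6 and 29.8 CPM in the null-labelled libraries, against 29.8, 27.4 and 29.5 CPM in control libraries. Its log2 fold change was 0.07 ± 0.05 (interval −0.05 to 0.19), with null 1 the highest and control 2 the lowest library. Neither chain of the type I receptor was called.

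Ifngr1, the ligand-binding chain of the type II receptor, had 32.9, 31.0 and 30.9 CPM in the null-labelled libraries, against 33.2, 33.2 and 32.7 CPM in control libraries. The log2 fold change was −0.06 ± 0.05 (interval −0.17 to 0.04), and null 1 lay among the controls. Ifngr2, the signalling chain that carries JAK2, had 124, 127 and 119 CPM in the null-labelled libraries, against 124, 131 and 122 CPM in control libraries, with a log2 fold change of −0.03 ± 0.04 (interval −0.12 to 0.06). The groups overlapped throughout.

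Of the kinases, Jak1, which serves both receptors, had 214, 206 and 198 CPM in the null-labelled libraries, against 194, 194 and 205 CPM in control libraries. Its log2 fold change was 0.06 ± 0.04 (interval −0.04 to 0.16). Control 3 lay between null 2 and null 3, and the groups overlapped. Tyk2, which serves the type I receptor, had 38.3, 40.7 and 42.1 CPM in the null-labelled libraries, against 44.0, 41.0 and 39.7 CPM in control libraries, with a log2 fold change of −0.04 ± 0.06 (interval −0.16 to 0.08). Taken over the 4 receptor chains and 2 kinases, the 95% intervals covered folds of 0.892 to 1.14, and the coefficient of variation within a group ran from 0.699% to 5.23%. None of these 6 intervals left out a fold of 1, which does not show that the levels were equal.

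Stat2, the STAT that is particular to the type I response, had 34.1, 34.9 and 39.2 CPM in the null-labelled libraries, against 36.3, 24.9 and 26.9 CPM in control libraries. The means were 36.1 ± 2.76 CPM in null-labelled and 29.4 ± 6.07 CPM in control ventricles (SD, n = 3 each), and the log2 fold change was 0.29 ± 0.15 (interval −0.07 to 0.66). Control 1 lay within the null-labelled range while controls 2 and 3 lay under it. Stat2 was not called with all 6 libraries, and without control 1 it was called, with a log2 fold change of 0.48 ± 0.08.

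Irf9, the DNA-binding subunit that joins STAT2, had 33.3, 27.6 and 29.4 CPM in the null-labelled libraries, against 22.9, 17.9 and 16.6 CPM in control libraries. All 3 null-labelled libraries lay above all 3 controls, with control 1 the nearest. The means were 30.1 ± 2.92 CPM in null-labelled and 19.1 ± 3.30 CPM in control ventricles, and the log2 fold change was 0.65 ± 0.13 (interval 0.35 to 0.95). The call was not firm: it was lost without null 1 (log2 fold change 0.57), null 2 (0.71), null 3 (0.67) or control 2 (0.60), without null 1 and null 3 together (0.53), among male libraries alone (0.62) and, with all 6 libraries, without the filter on low counts (0.65). It was held without control 1 (0.80) or control 3 (0.56), and the value stayed above 0 in all 16 alternatives.

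Usp18 had 12.9, 7.68 and 10.9 CPM in the null-labelled libraries, against 1.73, 0.750 and 0.962 CPM in control libraries. These stood for 518, 279 and 452 counts in the null-labelled libraries, against 76, 27 and 34 in control libraries, so the control levels rest on few counts: exact Poisson 95% intervals, which cover counting error only, were 1.36 to 2.16, 0.494 to 1.09 and 0.666 to 1.35 CPM. The lowest null-labelled library, null 2, was several times higher than the highest control, control 1. The interval of control 1 lay above those of both other controls. The means were 10.5 ± 2.63 CPM in null-labelled and 1.15 ± 0.514 CPM in control ventricles, the log2 fold change was 3.16 ± 0.33 (interval 2.38 to 3.94), and the fold of 8.96 had an interval of 5.22 to 15.4. The size of this change was above that of 99.93% of tested genes, of Irf9 above 96.01% and of Stat2 above 84.74%, while the receptor chains and kinases ranged from 17.57% to 41.4%. Without null 1 and null 3 the log2 fold change was 2.72, from 1 null-labelled library that is assumed to vary like the controls, and the call was lost. In the other 15 alternatives Usp18 was called.

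**Figure D2:**
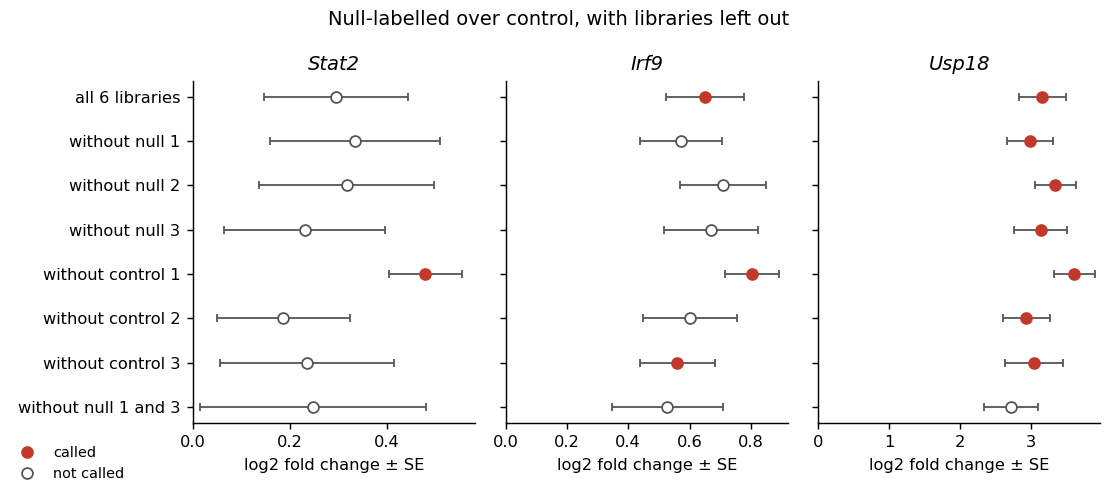
Log2 fold change, null-labelled over control, of Stat2, Irf9 and Usp18 with all libraries and with libraries left out (points, bars ± SE; filled where the adjusted p was under 0.05). All values lie above 0; Usp18 stays between 2.72 and 3.62, the Irf9 call comes and goes, and Stat2 is called in the row without control 1 and in no other row.

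Scaled by length, as CPM per kilobase of merged exons, the 9 genes kept one order for the first 5 and the last in all 6 libraries. Ifngr2 was highest, at 32.8 ± 1.04 in null-labelled and 33.4 ± 1.31 in control ventricles, and Jak1 followed at 28.5 ± 1.17 in null-labelled and 27.4 ± 0.919 in control ventricles. The next were Ifnar1 (16.2 ± 0.114 in null-labelled, 15.8 ± 0.307 in control), Ifngr1 (11.1 ± 0.398 in null-labelled, 11.6 ± 0.0956 in control) and Ifnar2 (9.12 ± 0.355 in null-labelled, 8.68 ± 0.388 in control). These 5 held ranks that no library changed. Tyk2 (5.89 ± 0.282 in null-labelled, 6.06 ± 0.317 in control), Stat2 (6.09 ± 0.466 in null-labelled, 4.95 ± 1.03 in control) and Irf9 (5.59 ± 0.542 in null-labelled, 3.55 ± 0.612 in control) came next. In all 3 control libraries they stood in that order, and among the null-labelled libraries they traded places, where the ranges of all 3 genes overlapped. In controls Tyk2 and Stat2 also overlapped, and Irf9 lay wholly below Tyk2. Usp18 was last in every library, at 3.76 ± 0.943 in null-labelled and 0.411 ± 0.184 in control ventricles (SD, n = 3 each).

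**Figure D3:**
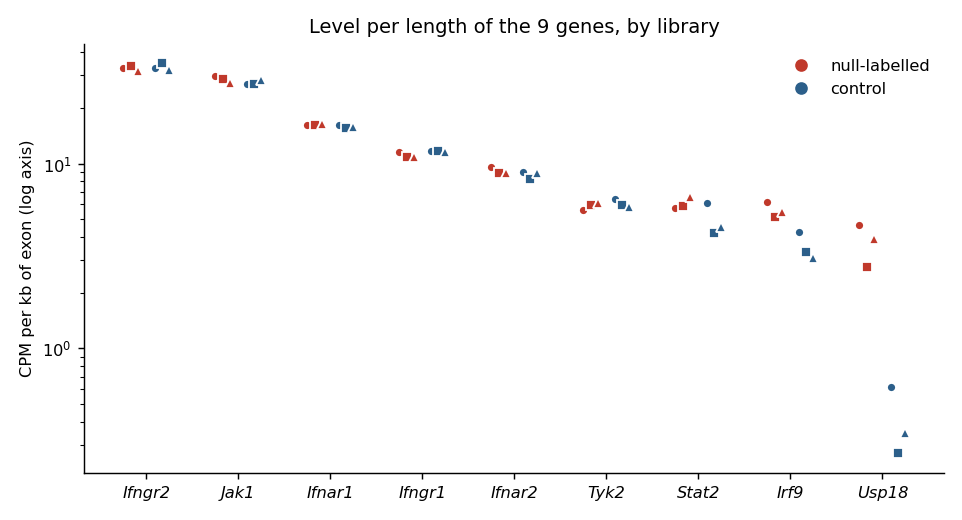
Level in CPM per kilobase of merged exons of the 9 genes on a log axis, with null-labelled libraries left of control libraries for each gene (points are libraries). Ifngr2 and Jak1 lead in all 6 libraries, and Usp18 is last in all 6 although its null-labelled points approach those of Irf9.

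Ratios between partners of one receptor, and between the kinases, overlapped between groups. The level of Ifnar1 over Ifnar2, both per length, was 1.78 ± 0.0797 in null-labelled and 1.83 ± 0.0584 in control ventricles, and that of Ifngr2 over Ifngr1 was 2.95 ± 0.129 in null-labelled and 2.88 ± 0.0969 in control ventricles. The level of Jak1 over Tyk2 was 4.86 ± 0.434 in null-labelled and 4.53 ± 0.362 in control ventricles. The spread between libraries of a group was about as large as the difference between groups. The level of Usp18 over that of Ifnar2, the chain it binds, was 0.485, 0.310 and 0.439 in the null-labelled libraries, against 0.0692, 0.0326 and 0.0389 in control libraries, which did not overlap. Usp18 over Irf9 was 0.746, 0.537 and 0.719 in the null-labelled libraries, against 0.146, 0.0811 and 0.112 in control libraries. Irf9 over Stat2 was 1.08, 0.870 and 0.823 in the null-labelled libraries, against 0.694, 0.791 and 0.680 in control libraries. Both of these ratios were higher in all 3 null-labelled libraries than in any control.

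The tested genes around Ifnar2, Ifnar1 and Ifngr2 had log2 fold changes from −0.20 to 0.19. Of 12 other protein-coding genes within 200 kb, 9 were tested and none was called by edgeR. The median log2 fold change was 0.01, and 3 had an unadjusted p under 0.05. Il10rb, a receptor chain of the IL-10 family in the same cluster, had a log2 fold change of 0.10 ± 0.05. The lowest of the 9 was Donson at −0.20 ± 0.08 and the highest Dnajc28 at 0.19 ± 0.06, with Tmem50b at −0.14 ± 0.05 and Gart, Son, Atp5o, Cryzl1 and Itsn1 at −0.02, −0.03, 0.06, 0.07 and 0.01.

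Transcripts of the ligands of these receptors were at or near 0. The list of interferon genes also holds Ifnl2 and Ifnl3, whose products bind another receptor and which had no count. Of 21 interferon genes, 15 had no count in any library and none passed the filter. Their summed counts were 2, 2 and 3 in the null-labelled libraries, against 2, 2 and 1 in control libraries. These sums do not exceed the 3 counts that define the floor, so no difference in ligand transcripts was detectable at this depth.

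Of 7 other Janus kinases and STATs tested, 2 rose and none fell, the median log2 fold change being 0.20. Stat3, which serves the IL-6 family, had 155, 132 and 142 CPM in the null-labelled libraries, against 118, 115 and 117 CPM in control libraries (log2 fold change 0.29 ± 0.05, adjusted p = 0.0178). Jak2, the kinase of Ifngr2, had 54.6, 53.0 and 53.5 CPM in the null-labelled libraries, against 48.6, 44.3 and 47.2 CPM in control libraries (0.20 ± 0.05, adjusted p = 0.0390). The groups did not overlap in either gene, but these calls were not firm. The Stat3 call was lost without null 3 (0.30) or control 2 (0.28), and that of Jak2 without null 1 (0.19), null 2 (0.21), null 3 (0.20) or control 2 (0.16), among male libraries (0.22), with a replicate block (0.20) and with a sex term (0.20). Without null 1 and null 3 together both values were 0.18 and neither was called. Jak3, which pairs with the common gamma chain, was not called (−0.23 ± 0.06, adjusted p = 0.0522); it was called lower without control 2 (−0.29), without the filter (−0.23) and at an adjusted p under 0.1.

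**Figure D4:**
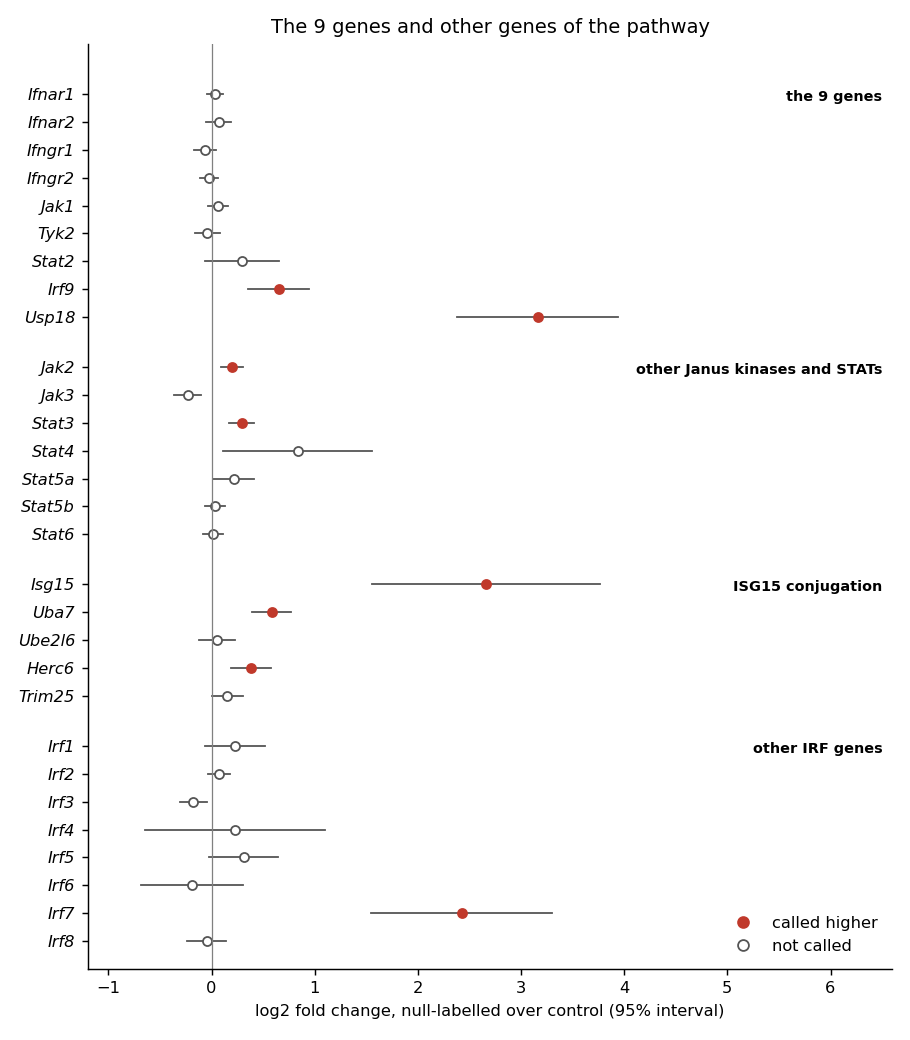
Log2 fold change, null-labelled over control, with 95% intervals for the 9 genes and for the other Janus kinases and STATs, the ISG15 conjugation genes and the other IRF genes; filled points were called higher. The receptor and kinase points of the 9 genes sit near 0, while Usp18, Isg15 and Irf7 lie above 2.

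The modifier that USP18 removes was higher as well. Isg15 had 11.6, 6.91 and 9.27 CPM in the null-labelled libraries, against 2.43, 0.667 and 1.19 CPM in control libraries (log2 fold change 2.66 ± 0.45, adjusted p = 0.0331). Of the 5 genes of ISG15 conjugation, 3 rose and none fell, with a median of 0.38. Uba7, the activating enzyme, rose by 0.58 ± 0.09 (adjusted p = 0.00717) and Herc6, the mouse ligase, by 0.38 ± 0.09 (adjusted p = 0.0379). The conjugating enzyme Ube2l6 (0.05 ± 0.08) and the ligase Trim25 (0.15 ± 0.07) were not called. The Isg15 call was lost without null 1 (2.47), null 2 (2.83), null 3 (2.66) or control 3 (2.53) and among male libraries alone (2.71), and the Herc6 call without null 1 (0.38), null 3 (0.31), control 1 (0.36), control 2 (0.40) or control 3 (0.38) and with a replicate block (0.38). Without null 1 and null 3, Isg15 (2.25), Uba7 (0.49) and Herc6 (0.22) were not called.

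Other brakes on the pathway were not called. Of 17 genes of SOCS, PIAS and phosphatase inhibitors, none was called by edgeR, DESeq2 or limma-voom and none had an unadjusted p under 0.05, the median log2 fold change being 0.05. Socs1, an inhibitor of the kinases that interferon induces, had 0.821, 1.43 and 0.605 CPM in the null-labelled libraries, against 0.455, 1.03 and 1.25 CPM in control libraries (log2 fold change 0.08 ± 0.43, interval −0.90 to 1.05). At these low counts its interval is wide. Socs3 had a log2 fold change of 0.10 ± 0.11 (interval −0.16 to 0.36).

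Among 8 other IRF genes 1 rose, none fell and the median was 0.15. Irf7, an interferon target that drives further interferon transcription, had 25.2, 12.7 and 17.5 CPM in the null-labelled libraries, against 4.64, 2.75 and 2.83 CPM in control libraries (log2 fold change 2.42 ± 0.35, adjusted p = 0.0254). The groups did not overlap, yet the call was lost without null 3 (2.47), control 2 (2.29), control 3 (2.31), null 1 and null 3 (1.89) or the female libraries (2.51). Without control 3 the call in this list was instead Irf3, lower at −0.22. Irf1, a target of both interferon types, was not called (0.23 ± 0.13).

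The listed targets of type I interferon moved together. Of 25 tested, 23 rose and none fell, and in all 25 the null-labelled libraries lay above the controls. Of all tested genes 2.43% were called higher, and in 26.6% the groups did not overlap in either direction. This list, like the others, was written with earlier results of these data known, so its counts are a description and not a test. The median log2 fold change was 1.48. Ifit1, whose product binds foreign RNA, and Ifit3 rose by 4.23 ± 0.37 (adjusted p = 0.00373) and 3.52 ± 0.31 (adjusted p = 0.00127), and were called in all 16 alternatives. The antiviral GTPase Mx1 rose by 3.32 ± 0.35 (adjusted p = 0.00224), Oasl1 by 2.91 ± 0.32 (adjusted p = 0.00226) and Parp14 by 1.02 ± 0.12 (adjusted p = 0.00577); these 3 calls were lost without null 1 and null 3 (2.84, 2.46 and 0.90). The count of 23 was 13 without null 1, 11 without null 3, 13 without control 2, 14 without control 3, 12 among male libraries and 2 without null 1 and null 3.

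Of the type II interferon targets, 19 of 21 were tested, 11 rose, 1 fell and 7 were not called, with a median of 1.14. The MHC class II genes H2-Aa (0.68 ± 0.32), H2-Ab1 (−0.19 ± 0.52) and H2-Eb1 (0.06 ± 0.31) were not called. Neither were Ciita (−0.29 ± 0.19), Cd74 (0.63 ± 0.24), Irgm2 (1.52 ± 0.32) and Icam1 (0.18 ± 0.09). The antigen transporter Tap1 rose by 1.30 ± 0.13 (adjusted p = 0.00105), the guanylate-binding protein Gbp6 by 1.67 ± 0.22 (adjusted p = 0.00454), the immunoproteasome subunit Psmb8 by 1.79 ± 0.25 (adjusted p = 0.00561), and the GTPases Irgm1 and Igtp by 1.08 ± 0.14 (adjusted p = 0.00916) and 1.58 ± 0.24 (adjusted p = 0.0189). Nos2, named because it was the 1 gene that fell and so chosen after its value was seen, fell by 0.47 ± 0.11 (log2 fold change −0.47, adjusted p = 0.0436). The Nos2 call was lost without null 1 (−0.54), null 2 (−0.39), null 3 (−0.48), control 1 (−0.48) or control 2 (−0.42), without null 1 and null 3 (−0.64), among male libraries (−0.43), by limma-voom (−0.47) and with a replicate block (−0.47). Many of these genes also answer type I interferon, so the lists are not separate readouts. The Igtp call was lost without null 3 (1.61), control 1 (1.69), control 2 (1.49) or control 3 (1.57); without null 1 and null 3 none of the 19 was called, Tap1, Gbp6, Psmb8, Irgm1 and Igtp then being at 1.11, 1.79, 1.37, 0.89 and 1.08. The count of 12 calls was 6 without null 3 and 5 without control 2.

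Other receptors were not called, with 1 exception. None of 5 tested class II cytokine receptor chains was called by edgeR, DESeq2 or limma-voom, and none had an unadjusted p under 0.05 (median log2 fold change 0.10). Of 10 tested chains of other receptors that use JAK1 or TYK2, 1 fell and none rose, with a median of 0.02. Il2rg, the common gamma chain of lymphocyte cytokine receptors, averaged 13.4 ± 1.11 CPM in null-labelled and 17.4 ± 1.36 CPM in control ventricles (SD, n = 3 each; log2 fold change −0.38 ± 0.09, adjusted p = 0.0345). This call was lost without null 1 (−0.43), null 2 (−0.31), null 3 (−0.39), control 1 (−0.31) or control 2 (−0.43), without null 1 and null 3 together (−0.51) and among male libraries (−0.33). Without null 1 the call in this list was instead Lifr, the receptor of leukemia inhibitory factor, higher at 0.29.

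Within groups, the same libraries were often highest or lowest for Stat2, Irf9 and Usp18 and for the type I interferon targets. Control 1 was the highest control for all 3 genes and for 21 of the 25 type I targets (84.0%, against 31.6% of all tested genes). Null 2 was the lowest null-labelled library for Usp18 and Irf9 and for 24 of the 25 targets (96.0%, against 33.9%). Stat2 differed there, since null 1 was its lowest null-labelled library and null 3 its highest. Of the 19 type II targets tested, control 1 was the highest control for 8 (42.1%) and null 2 the lowest null-labelled library for 12 (63.2%). Null 2 was also the lowest null-labelled library for all 7 other Janus kinases and STATs. The summed level of the type I targets was 436, 317 and 369 CPM in the null-labelled libraries, against 212, 171 and 183 CPM in control libraries, and that of the type II targets 171, 118 and 130 CPM in the null-labelled libraries, against 79.9, 67.7 and 76.9 CPM in control libraries.

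Over the 6 libraries, the genes whose log2 CPM followed Usp18 most closely, among 13171 genes averaging 1 CPM or more, were Parp14, Oasl2, Ifih1, Oasl1 and Tap1, with Pearson's r of 0.9984, 0.9979, 0.9976, 0.9971 and 0.9966. After removal of the group means their r with Usp18 was 0.9871, 0.9784, 0.9808, 0.9658 and 0.9491. For Irf9 the values were 0.9678 and 0.8857, and for Stat2 0.7897 and 0.7927. Of the receptor chains, none of them called, Ifnar1 stood at 0.8128 and 0.6856 and Ifnar2 at 0.719 and 0.7828. Ifngr1 and Ifngr2 were below 0 over the 6 libraries, at −0.6249 and −0.4128. After removal of the group means they stood at 0.4137 and −0.5356. These are descriptions over 6 libraries in 2 groups, whose points share library and depth.

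**Figure D5:**
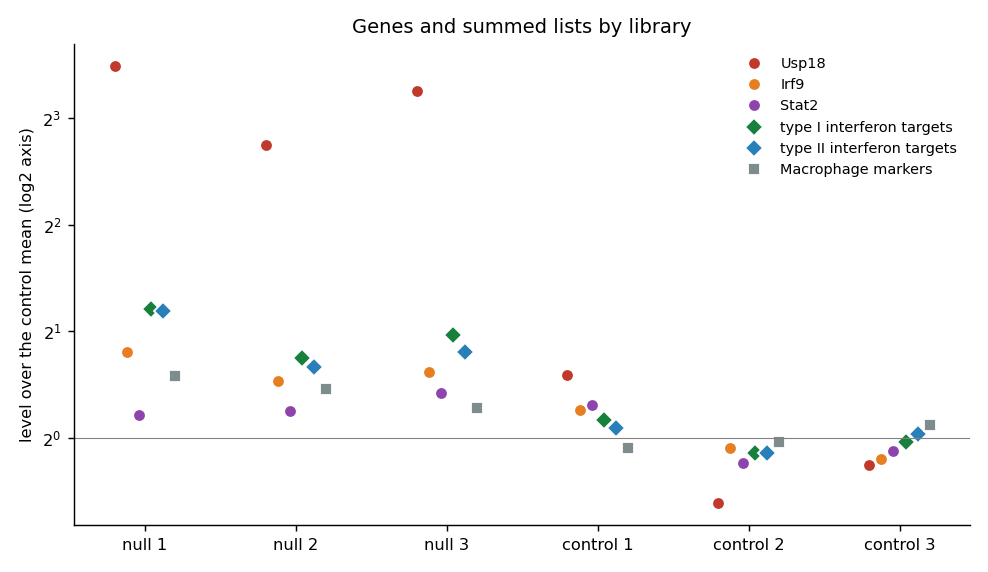
Level of Usp18, Irf9 and Stat2 and summed level of the type I targets, type II targets and macrophage markers in each library, over the control mean (log2 axis; null-labelled libraries left of control libraries). Control 1 stands above the other controls for the interferon genes and lowest for the macrophage markers, and null 2 is the lowest null-labelled library for Usp18 and Irf9.

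Markers of cell types that use this pathway moved with the groups in part. Of 14 macrophage markers, 5 rose, none fell and all 14 had values above 0, the median log2 fold change being 0.51. Their summed level was 155, 142 and 126 CPM in the null-labelled libraries, against 97.1, 101 and 113 CPM in control libraries. The count of 5 was 0 without null 1, null 2, control 2, or null 1 and null 3 together. It was 1 without control 1, 2 by limma-voom, with a replicate block or among male libraries, and 8 by DESeq2. Control 1, the control with the most Usp18, had the lowest macrophage sum, while between groups the sums did not overlap. The part of macrophages in the Usp18 and Irf9 values was not tested. The 9 markers of lymphocytes, NK cells and plasmacytoid dendritic cells were near 0, none passing the filter, with sums of 0.373, 0.633 and 0.460 CPM in the null-labelled libraries, against 0.500, 0.444 and 0.821 CPM in control libraries.

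Of 8 endothelial markers, 5 fell and none rose (median −0.22), with sums of 1306 to 1404 CPM in the null-labelled and 1467 to 1634 CPM in the control libraries. Of 5 fibroblast markers, 3 rose and none fell, with sums of 2557 to 2704 CPM in the null-labelled and 2017 to 2337 CPM in the control libraries. Of 6 cardiomyocyte markers, 1 fell and none rose, with sums of 39471 to 41371 CPM in the null-labelled and 39464 to 42655 CPM in the control libraries, so the labelled tissue had its defining transcripts at high level in all 6 libraries. The 5 erythroid markers were not called and spread widely, with sums of 1202 to 1962 CPM in the null-labelled and 1738 to 5057 CPM in the control libraries. Control 3 had the highest erythroid sum. It also had the highest sum of 4 liver markers, at 13.9 CPM, against 0.477 CPM in control 1 and 0.944 CPM in control 2. The liver sums were 2.04 to 4.55 CPM in the null-labelled libraries, and no liver marker was called. These calls were not firm either: leaving out null 2 or null 3 gave 1 endothelial call each and leaving out control 1 gave 3. For fibroblasts, leaving out null 2 gave 0 calls, and leaving out null 1, null 3 or control 2 gave 1 each. The cardiomyocyte call, Actc1 (−0.18 ± 0.04, adjusted p = 0.0401), was lost without null 1, null 2, null 3, control 1 or control 2, among male libraries, by limma-voom and with a replicate block; without control 1 another marker, Ryr2, was called higher (0.29), and with upper quartile scaling, DESeq2, a sex term or no filter 1 marker was higher and 1 lower. Without null 1 and null 3 no endothelial, fibroblast or cardiomyocyte marker was called (0 of each). The part of these cell types in the levels of the 9 genes was not tested.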

How the data were processed

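Whole-number counts per gene were deposited by the authors as 1 file per library, without normalisation. Tools named in the submitters' processing notes, with no role or order, are STAR, cutadapt 1.13, DESeq2 and HTSeq 0.6.1p1, and the build is mm10; strand setting and annotation release: not given in the sources used here. Of 25006 gene identifiers, 24991 matched GENCODE M21, which gave symbols, coordinates and exon lengths, and 15 did not.

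The counts were fitted with edgeR 4.0.16 (R 4.3.3) over all 6 libraries: TMM scaling, filterByExpr by group, robust quasi-likelihood F test, two-sided, Benjamini-Hochberg adjustment over 14815 genes, with a call at an adjusted p under 0.05. CPM were computed on TMM-scaled library totals. Script and fit were tested on simulated counts. Alternatives were other scalings and filters, DESeq2 1.42.0, limma-voom (limma 3.58.1), a replicate block, a sex term, a threshold of 0.1 and libraries left out. Leaving out null 1 with null 3, and keeping male libraries only, were chosen after seeing the data.

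The 9 genes and all gene lists were chosen with earlier results of these data known. In each list up to 5 called genes of smallest p were named, with all tested neighbours of the receptor genes and the 5 genes most like Usp18. The type II targets that were tested and not called were named as well. Others named were picked for their role or, as single calls (Nos2, Jak3, Irf3, Lifr, Actc1, Ryr2), after their values were seen. A gene is left out of the list of other Janus kinases and STATs and is not reported here. The labels do not say what the replicate numbers mark, and the main fit did not pair libraries by them.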

Additional observations from a re-analysis of the deposited data

How the results depend on the processing

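The 9 log2 fold changes were recomputed under 16 alternatives each, 144 values in all: 132 kept direction and call, 8 lost a call (7 of Irf9, 1 of Usp18), 1 gained one (Stat2) and 3 uncalled values changed sign (Ifngr2 and Tyk2). The count of called genes was 801; leaving out 1 library gave 258 to 942, leaving out null 1 and null 3 gave 52, male libraries 461 and an adjusted p under 0.1 gave 1430, while DESeq2 gave 1095 and limma-voom 667. Of the 9 genes, 2 were called; without the low-count filter 1 was (Irf9 was lost at 0.65), with 1 library left out 1 to 3, without null 1 and null 3 none (0), and among male libraries 1. Without 1 library each, calls among the other Janus kinases and STATs (2) ran from 0 to 2 (without control 2 the 1 call was Jak3, lower), type I targets (23) from 11 to 22 and type II targets (12) from 5 to 10; without null 1 and null 3 they were 0, 2 and 0, and among male libraries 1, 12 and 7; the Janus kinase and STAT calls were 1 with the replicate block and 1 with the sex term. Calls among ISG15 conjugation genes (3) ran from 1 to 2 and among other IRF genes and other JAK1 or TYK2 receptors (1 each) from 0 to 1 with 1 library left out, where the single call was another gene in the opposite direction without control 3 (Irf3) and without null 1 (Lifr); without null 1 and null 3 all of these were 0, the IRF call was 0 among male libraries and without the filter, and the receptor calls were 0 among male libraries, 2 by DESeq2 and 2 at 0.1. Without the filter, Isg15 (2.66) and Irf7 (2.42) were not called; limma-voom did not call Herc6 (0.38). The cause was not tested, beyond the fewer libraries. With the replicate block, Usp18 stood at 3.21, Irf9 at 0.66 and Stat2 at 0.31. In that fit 2 of the 9 genes, 22 of the type I targets and 570 genes in all were called. Same-numbered libraries had deviations from their group means that correlated at −0.0643, −0.0467 and −0.1209. With 3 libraries in a group, these values showed no pairing by number and cannot exclude one. Depth limits Usp18 in controls, Socs1 and the interferon genes.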
